A study of Mus musculus with 12 samples.

Results

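Levels of 10 genes of lipid-associated macrophages were followed in liver RNA-seq of mice with and without hepatocyte PPARα, on chow or on a fatty-liver diet. The genes were Gpnmb, Trem2, Spp1, Cd9, Cd63, Lpl, Tyrobp, Cd68, Itgax and Lgals3. They were taken as the rows of the count table whose mapped symbol is on that list, and all 10 were found among 55357 genes and passed the filter on low counts with 17358 genes. The list itself was chosen by reference to earlier results of these data, in which the level of Gpnmb in WT chow, KO chow and WT CDAHFD livers was known. For that reason the differences from WT chow, and that between WT CDAHFD and KO chow, are given as descriptions without p-values, and tests are kept for KO CDAHFD against WT CDAHFD and against KO chow, where Gpnmb too is described without a p-value.

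The mice were C57BL/6J males, 7 weeks old at the start and 13 weeks old at death, after 6 weeks on either diet. All carried the floxed allele PPARa fl/fl. KO mice were in addition AlbuminCre Tg/+, so that the albumin promoter deleted Ppara in hepatocytes while macrophages and other liver cells kept it, and WT mice were AlbuminCre +/+. The chow gave 9% of its energy as fat. The CDAHFD, a choline-deficient diet of defined L-amino acids that blocks export of liver fat, gave 62%. There were 4 WT chow, 2 KO chow, 3 WT CDAHFD and 3 KO CDAHFD libraries, each from poly-A RNA of whole liver.

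Libraries held 29906785 to 43551003 counts. Values below are CPM, a gene's count scaled to a common library total, on library sizes scaled by the trimmed mean of M values (TMM). A level is thus relative to the scaled total of poly-A counts of the same liver, and total RNA was not measured. Ppara, the targeted gene, lay at 96.2 to 238 CPM in WT chow, 14.4 and 38.7 CPM in KO chow, 59.5 to 75.5 CPM in WT CDAHFD and 20.7 to 51.9 CPM in KO CDAHFD, lower in every KO library than in every WT library on the same diet. The WT chow libraries stood apart in their TMM factors (0.729 to 0.827, against 1.03 to 1.26 in the other 8), so differences from WT chow depend on the scaling more than the others do. Under library size alone, the median of all genes tested moved from 0.00 to 0.40 on the log2 scale for KO chow, from −0.05 to 0.51 for WT CDAHFD and from −0.04 to 0.57 for KO CDAHFD, each against WT chow, and the share of called genes that were higher moved from 56.4% to 86.0%, from 51.0% to 88.6% and from 51.4% to 89.9%. All 10 genes were called higher in these comparisons under either scaling. The tissue label was matched by hepatocyte markers, whose summed level was 68766 to 93866 CPM on chow and 38272 to 53217 CPM on CDAHFD.

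Macrophages that take up lipid and cell debris in fatty liver, fat tissue, atherosclerotic plaques and injured brain share a set of surface and lysosomal genes. TREM2 is a receptor on these cells that binds lipids, lipoproteins and apoptotic cells, and it signals through the adaptor TYROBP (DAP12), whose phosphorylated tail recruits the kinase SYK. GPNMB and SPP1 (osteopontin) are glycoproteins of the activated cell, CD9 and CD63 are tetraspanins, LPL hydrolyses triglycerides of lipoproteins, CD68 is a glycoprotein of endosomes and lysosomes, ITGAX (CD11c) is a β2-type integrin α chain, and LGALS3 (galectin-3) binds β-galactosides and damaged lysosomes. Resident macrophages of the healthy liver, the Kupffer cells, are marked by CLEC4F, TIMD4 and VSIG4. Several of the 10 genes are not particular to macrophages: Spp1 is made by cholangiocytes, Lpl by fat cells and muscle, and Cd9 and Cd63 by many cell types.

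The positions of the 10 genes are those of GENCODE M21 on GRCm38. Gpnmb (ENSMUSG00000029816, chr6:49036546-49070929, plus strand) and Cd9 (ENSMUSG00000030342, chr6:125460266-125494791, minus strand) share chromosome 6. Tyrobp (ENSMUSG00000030579, chr7:30413760-30417585, plus strand) and Itgax (ENSMUSG00000030789, chr7:128129547-128150657, plus strand) share chromosome 7. The others are Trem2 (ENSMUSG00000023992, chr17:48346401-48354147, plus strand), Spp1 (ENSMUSG00000029304, chr5:104435118-104441050, plus strand), Cd63 (ENSMUSG00000025351, chr10:128900989-128912822, plus strand), Lpl (ENSMUSG00000015568, chr8:68880491-68907448, plus strand), Cd68 (ENSMUSG00000018774, chr11:69664213-69666153, minus strand) and Lgals3 (ENSMUSG00000050335, chr14:47367751-47386160, plus strand). Of the 10, only Spp1 and Cd9 share exon bases with another gene of the annotation that had counts, and those neighbours, Gm42793 and Gm26728, held 0.0904% and 0.0229% of the counts of Spp1 and Cd9.

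Because the genes moved together, their promoters are shown where a motif common to several was found. RefSeq windows of 250 bases before to 50 bases after the start site (GRCm38.p6) were matched for 8 of the 10 genes, in 9 windows because Spp1 has 2 starts. Lpl and Tyrobp were not matched. The AP-1-like pattern TGANTCA, with any base at N, reads the same on both strands. It was present in 4 of the 9 windows, those of Gpnmb, Itgax, Cd68 and Trem2. Over all 32851 windows its share was 7.81%. The base at N was C in Gpnmb, G in Itgax and in both matches of Cd68, and A in Trem2. The E-box CACGTG was in 0 of the 9 (7.15% of all windows), the M-box core TCANGTG in that of Lgals3 (14.3%), the PU.1 motif GAGGAAGT in 1 of Spp1 (3.20%), and the direct repeat DR1 of nuclear receptors in 0 (0.0396%), each searched on both strands, with M-box and E-box matches able to overlap. A match says only that the letters are there. The 4 windows with the AP-1-like pattern follow, 5′ to 3′ on the gene's strand, with the match in capitals. Itgax (chr7:128129300-128129549), Cd68 (chr11:69666171-69666420) and Trem2 (chr17:48346151-48346400) are given for the 250 bases before the start, and Gpnmb (chr6:49036518-49036547) for 30 bases around its match.
Gpnmb: ggggcaagTGACTCAtgagcacgagttgtt
Itgax: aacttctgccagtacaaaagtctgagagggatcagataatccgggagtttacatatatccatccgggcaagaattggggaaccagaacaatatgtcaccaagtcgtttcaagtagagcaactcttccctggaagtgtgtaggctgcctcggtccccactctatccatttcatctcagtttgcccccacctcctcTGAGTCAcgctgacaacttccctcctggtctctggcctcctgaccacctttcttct
Cd68: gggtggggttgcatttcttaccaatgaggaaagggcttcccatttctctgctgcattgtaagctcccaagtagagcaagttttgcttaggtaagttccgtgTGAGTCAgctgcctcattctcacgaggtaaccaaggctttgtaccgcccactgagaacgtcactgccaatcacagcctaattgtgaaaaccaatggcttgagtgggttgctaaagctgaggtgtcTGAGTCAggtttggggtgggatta
Trem2: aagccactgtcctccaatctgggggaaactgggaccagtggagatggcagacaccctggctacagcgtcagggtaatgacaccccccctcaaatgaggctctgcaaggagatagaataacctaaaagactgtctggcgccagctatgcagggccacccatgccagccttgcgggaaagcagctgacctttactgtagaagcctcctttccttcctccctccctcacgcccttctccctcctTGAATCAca
Cd68 held the motif at 149 and at 24 bases before its start, Itgax at 56 and Trem2 at 9 bases before, and Gpnmb at base 9 after the start, counted to the first base of the match.

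The levels in WT chow livers were low, and those in the other 3 groups higher in every library. All 10 genes were called higher in KO chow than in WT chow, against 22% of the genes tested. All 10 were also called higher in WT CDAHFD than in WT chow (26.1% of the genes tested) and in KO CDAHFD than in WT chow (26.9%). In each of these comparisons the libraries of the groups did not overlap for any of the 10, a pattern seen upwards in 27.2%, 28% and 26.7% of all genes tested. The 3 comparisons share the WT chow libraries, so they are not independent of each other. The median difference of the 10 genes from WT chow on the log2 scale was 3.51 in KO chow, with 4.47 in WT CDAHFD and 4.55 in KO CDAHFD. In bulk liver, more macrophages and more of these RNAs per macrophage cannot be told apart. The summed level of the 10 genes was 96.1 to 176 CPM in WT chow, 845 and 914 CPM in KO chow, 1954 to 2598 CPM in WT CDAHFD and 2375 to 2610.2 CPM in KO CDAHFD.

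**Figure D1:**
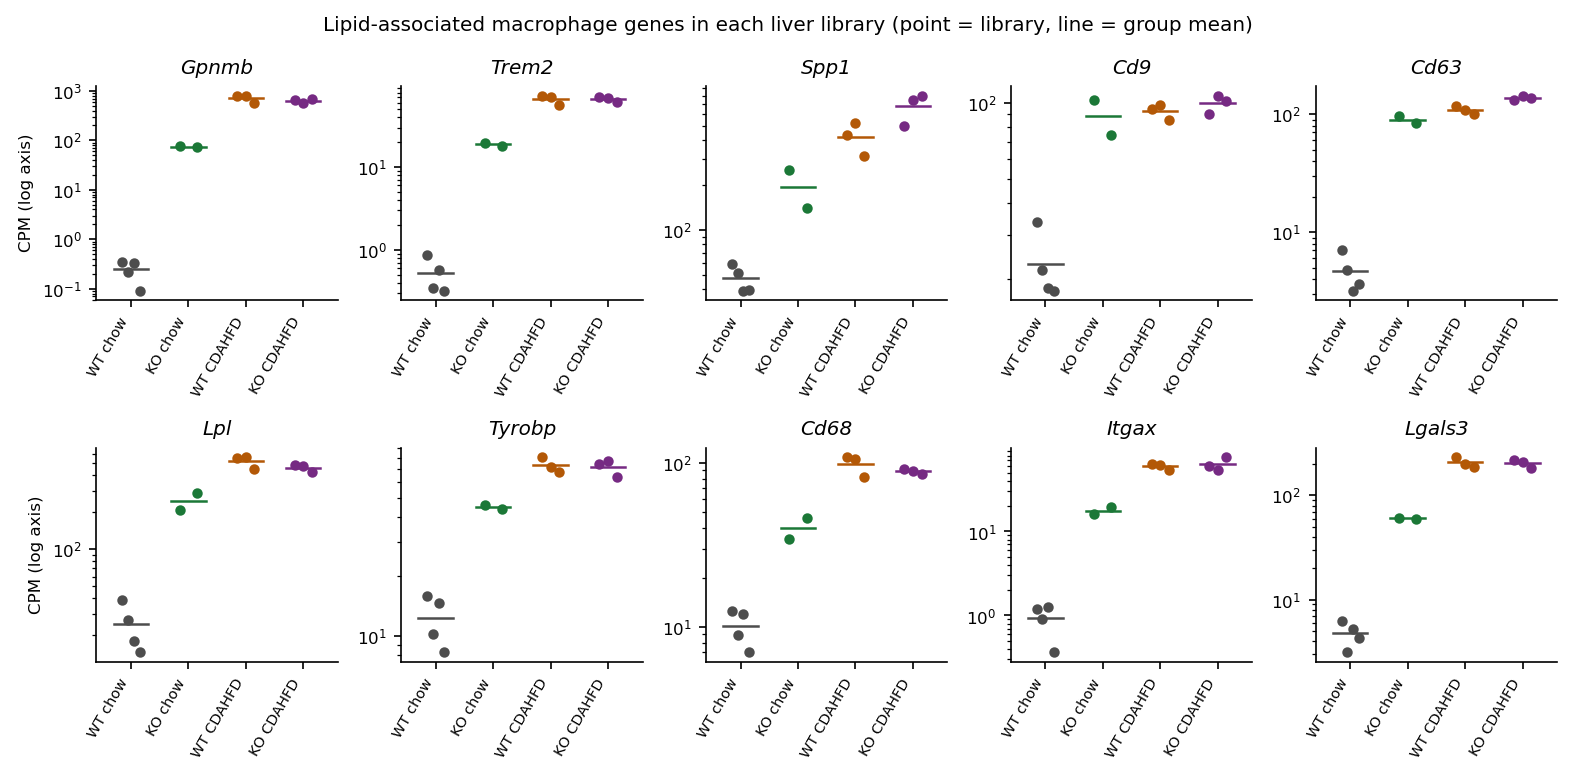
Level of each of the 10 genes in every library, in CPM on a log axis, with a point for each library and a line for the group mean, in WT chow (n = 4), KO chow (n = 2), WT CDAHFD (n = 3) and KO CDAHFD (n = 3). The WT chow points lie below all others in each panel, Gpnmb spanning from 0.0917 to 796 CPM, and KO chow lies between WT chow and the CDAHFD groups except for Cd9.

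Among the receptor, its adaptor and GPNMB, the span from WT chow to the other groups was very unequal. Trem2 was at 0.854, 0.346, 0.567 and 0.321 CPM in the 4 WT chow libraries, which is 7 to 22 counts, at 19.8 and 17.9 CPM in KO chow, at 73.1, 70.4 and 57.1 CPM in WT CDAHFD and at 71.4, 68.3 and 61.9 CPM in KO CDAHFD. The order of the levels was WT chow, then KO chow, then both CDAHFD groups, whose libraries interleaved. Against WT chow, Trem2 was higher by 5.16 ± 0.23 (log2, SE) in KO chow, with 6.99 ± 0.22 in WT CDAHFD and 6.998 ± 0.22 in KO CDAHFD. Tyrobp, its signalling partner, was at 15.8, 10.2, 14.7 and 8.26 CPM in WT chow, 46.0 and 43.8 CPM in KO chow, 80.4, 71.7 and 67.6 CPM in WT CDAHFD, and 74.5, 77.1 and 63.8 CPM in KO CDAHFD. It kept the same order of groups with a far smaller span, by 1.87 ± 0.20, 2.58 ± 0.19 and 2.55 ± 0.19 on the log2 scale above WT chow. Tyrobp is also the adaptor of other receptors and is carried by NK cells, neutrophils and all macrophages, and its WT chow level was far above that of Trem2 per kilobase of exon (18.3 against 0.106 CPM per kb).

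Gpnmb, a transmembrane glycoprotein of lysosomes and the cell surface, was close to absent from WT chow livers, with 0.349, 0.220, 0.333 and 0.0917 CPM from 2 to 10 counts. It was at 75.6 and 73.2 CPM in KO chow, at 782, 796 and 559 CPM in WT CDAHFD and at 657, 560.2 and 676 CPM in KO CDAHFD. No other of the 10 genes moved as far: it was higher than WT chow by 8.17 ± 0.25 (log2, SE), a fold of 288, in KO chow, by 11.43 ± 0.26 in WT CDAHFD and by 11.25 ± 0.26 in KO CDAHFD. The few WT chow counts limit how exactly the size of these folds is known, since the WT chow libraries themselves had a coefficient of variation of 48.0%.

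The secreted and lipid-handling products followed. Spp1, a phosphoglycoprotein that binds integrins and CD44, was at 59.0, 51.7, 39.2 and 39.4 CPM in WT chow, 251.5 and 140.2 CPM in KO chow, 433, 525 and 314 CPM in WT CDAHFD and 500.0, 746 and 797 CPM in KO CDAHFD. The KO chow livers differed widely from each other, and 1 KO CDAHFD library lay within the WT CDAHFD range. The differences from WT chow were 2.05 ± 0.27, 3.16 ± 0.25 and 3.85 ± 0.26 on the log2 scale in KO chow and in WT and KO mice on CDAHFD. Markers of cholangiocytes, which make Spp1, moved with it: their summed level was 8.37 to 22.0 CPM in WT chow, 29.4 and 44.5 CPM in KO chow, 53.0 to 64.6 CPM in WT CDAHFD and 84.3 to 106 CPM in KO CDAHFD, with 6, 7 and 7 of 7 markers called higher than in WT chow. Their part in the Spp1 level was not tested.

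Lpl, the lipoprotein lipase that frees fatty acids from circulating triglyceride, was at 38.9, 26.5, 18.0 and 14.6 CPM in WT chow, 211 and 286 CPM in KO chow, 557, 560.4 and 446 CPM in WT CDAHFD, and 481, 475 and 428 CPM in KO CDAHFD. Its order was that of Trem2, and the differences from WT chow were 3.34 ± 0.29, 4.41 ± 0.28 and 4.23 ± 0.28 on the log2 scale. Lpl is also a gene of fat cells. None of 4 adipocyte markers passed the filter on counts, Lep had 0 counts throughout, and the 4 together stayed at or under 0.0944 CPM in every library. Which cells of the liver, hepatocytes among them, held the Lpl RNA was not tested. Lgals3, the β-galactoside-binding lectin, was at 6.29, 3.15, 5.24 and 4.31 CPM in WT chow, 61.4 and 59.5 CPM in KO chow, 232, 202 and 189 CPM in WT CDAHFD and 217, 210.2 and 182 CPM in KO CDAHFD. The KO chow libraries were close to each other and far from either side, with differences from WT chow of 3.67 ± 0.20, 5.45 ± 0.20 and 5.42 ± 0.20.

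Of the tetraspanins, Cd9 was at about its CDAHFD level already in KO chow, while Cd63 was lower in KO chow than in any CDAHFD library. Cd9, which organises adhesion and fusion complexes at the plasma membrane, was at 33.5, 21.7, 18.3 and 18.0 CPM in WT chow, 103 and 74.3 CPM in KO chow, 94.9, 98.2 and 85.5 CPM in WT CDAHFD, and 90.3, 107 and 102 CPM in KO CDAHFD. Its KO chow libraries lay on either side of the WT CDAHFD libraries, the only gene of the 10 for which KO chow overlapped WT CDAHFD. Cd63, a tetraspanin of late endosomes and lysosomes, was at 7.07, 4.78, 3.20 and 3.67 CPM in WT chow, 95.7 and 84.3 CPM in KO chow, 117, 109 and 100.3 CPM in WT CDAHFD, and 133, 143 and 136 CPM in KO CDAHFD. Cd63 was the only gene of the 10 whose WT CDAHFD and KO CDAHFD libraries did not overlap. How often libraries did not overlap over all genes tested was not counted for these comparisons. The log2 differences of Cd9 from WT chow were 1.95 ± 0.21 in KO chow, and on CDAHFD 2.02 ± 0.20 in WT and 2.12 ± 0.20 in KO mice. For Cd63 they were 4.26 ± 0.22, 4.53 ± 0.21 and 4.87 ± 0.22.

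Of the remaining pair, Cd68 was at 12.5, 8.91, 11.9 and 7.02 CPM in WT chow, 34.4 and 46.3 CPM in KO chow, 108, 105 and 82.2 CPM in WT CDAHFD, and 91.5, 89.4 and 85.6 CPM in KO CDAHFD. This scavenger-receptor-like glycoprotein marks all tissue macrophages, and its log2 differences from WT chow (1.998 ± 0.20, 3.29 ± 0.19 and 3.14 ± 0.19) were nearer to those of Tyrobp than to those of Trem2. Itgax, the α chain of the integrin CD11c/CD18 that dendritic cells also carry, was at 1.204, 0.913, 1.27 and 0.367 CPM in WT chow (8 to 38 counts), 15.9 and 19.6 CPM in KO chow, 64.3, 61.0 and 53.8 CPM in WT CDAHFD, and 59.9, 54.4 and 76.5 CPM in KO CDAHFD. Its differences from WT chow were 4.21 ± 0.26, 5.96 ± 0.26 and 6.05 ± 0.26. The summed level of 6 dendritic cell markers was 9.31 to 12.1 CPM in WT chow, 17.4 and 21.9 CPM in KO chow, 18.2 to 18.9 CPM in WT CDAHFD and 20.0 to 23.6 CPM in KO CDAHFD, and their part in the Itgax level was not tested.

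**Figure D2:**
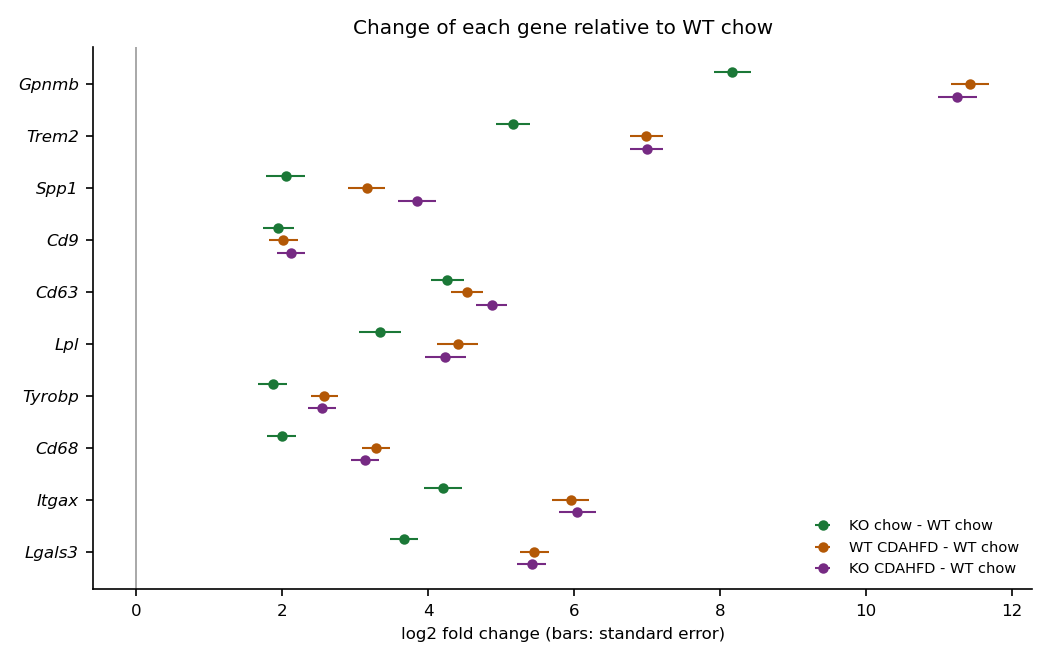
Difference of each gene from WT chow on the log2 scale in KO chow and in WT and KO mice on CDAHFD, as the fitted value with bars of 1 standard error. The differences in KO chow ran from 1.87 for Tyrobp to 8.17 for Gpnmb, and the 2 CDAHFD groups lay beside each other and above KO chow, with Cd9 and Cd63 closest to it.

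Levels can be set side by side between genes only per length of exon. In WT chow the highest of the 10 was Spp1 with 28.7 ± 5.90 CPM per kb (SD, n = 4), followed by Tyrobp with 18.3 ± 5.41, Cd9 with 11.2 ± 3.57 and Cd68 with 8.02 ± 2.05, and the lowest was Gpnmb with 0.0382 ± 0.0183. Neighbours among the first 4 overlapped within 1 SD. In WT CDAHFD the highest was again Spp1, with 257 ± 64.0 CPM per kb (n = 3). Below it Lgals3 (112 ± 11.98), Tyrobp (109.8 ± 9.78) and Gpnmb (109 ± 20.4) were level within their spread, so Gpnmb went from the last place to beside the second. Trem2 (13.5 ± 1.73) and Itgax (12.4 ± 1.13) were the lowest of the 10, level within their spread. These lengths are of all annotated exons of a gene together, and a gene that uses few of them has its value set too low.

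The span between chow and CDAHFD within the knockout was then tested. In KO CDAHFD livers 6 of the 10 genes were called higher than in KO chow, with Gpnmb counted though only described, against 3.76% of all genes tested. The test was edgeR's quasi-likelihood fit, adjusted after Benjamini and Hochberg for every gene tested. The list was chosen with earlier results of these data known, so the p-values may not be independent of that choice. Gpnmb, whose KO chow level was known when the list was chosen, was higher by 3.08 on the log2 scale (95% interval 2.59 to 3.58), an 8.48-fold higher level, given here as a description. Itgax rose by 1.84 (1.28 to 2.40, adjusted p = 0.00231 in edgeR), Trem2 by 1.83 (1.38 to 2.29, adjusted p = 7.24e-04), Spp1 by 1.80 (1.13 to 2.47, adjusted p = 0.00676), Lgals3 by 1.75 (1.28 to 2.22, adjusted p = 0.00108) and Cd68 by 1.14 (0.66 to 1.62, adjusted p = 0.0124). For each of these 6 all 3 KO CDAHFD libraries lay above both KO chow libraries. The other 4 did not pass: Lpl differed by 0.89 (0.21 to 1.58, adjusted p = 0.117 in edgeR), Tyrobp by 0.68 (0.20 to 1.16, adjusted p = 0.0919), Cd63 by 0.61 (0.11 to 1.11, adjusted p = 0.141) and Cd9 by 0.17 (−0.33 to 0.68, adjusted p = 0.707). The libraries of Lpl, Tyrobp and Cd63 did not overlap either, while those of Cd9 did. The share of all genes tested without overlap was not counted for this comparison, so the pattern adds nothing to the calls. With only 2 KO chow livers the call of Cd68 was lost without KO chow replicate 1 (0.96, adjusted p = 0.13 in edgeR) and that of Spp1 without KO chow replicate 2 (1.43, adjusted p = 0.0614).

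Between the genotypes on CDAHFD none of the 10 genes passed edgeR's quasi-likelihood test, and none did under DESeq2 or limma-voom. Of the 10, 1 gene, Spp1, had an unadjusted p under 0.05. Over all genes tested 62, or 0.357%, were called in either direction, and 1523 had an unadjusted p under 0.05. KO CDAHFD minus WT CDAHFD on the log2 scale was −0.17 for Gpnmb (95% interval −0.56 to 0.21, a description) and 0.01 for Trem2 (−0.37 to 0.38, adjusted p = 0.995 in edgeR). The same difference was −0.03 for Tyrobp (−0.45 to 0.39) and −0.03 for Lgals3 (−0.43 to 0.36), −0.15 for Cd68 (−0.56 to 0.26) and −0.17 for Lpl (−0.77 to 0.42). It was 0.09 for Itgax (−0.37 to 0.56) and 0.10 for Cd9 (−0.35 to 0.55). The adjusted p of those 6 genes in edgeR was between 0.877 for Cd68 and 0.984 for Tyrobp. The intervals show the sizes these 3 against 3 livers leave possible, and they do not show that the levels are equal. Spp1 differed by 0.68 (0.12 to 1.25, adjusted p = 0.458 in edgeR) and Cd63 by 0.34 (−0.10 to 0.78, adjusted p = 0.694). For Cd63 every KO library lay above every WT library (137 ± 5.36 against 108 ± 8.13 CPM, SD, n = 3 each). How often this occurred over all genes tested was not counted.

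**Figure D3:**
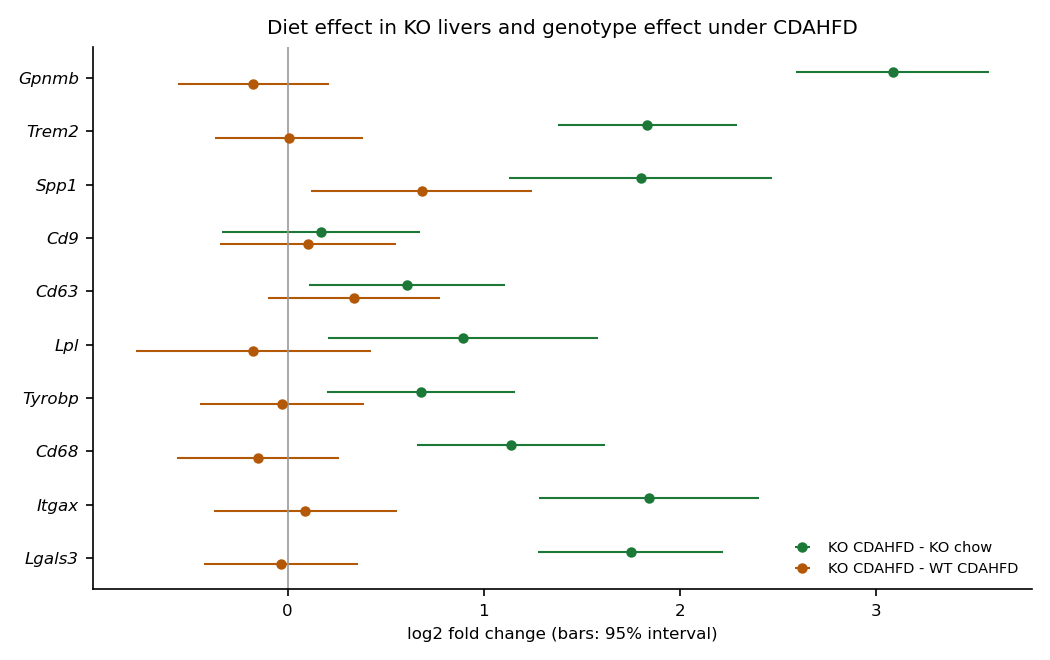
Log2 difference of the 10 genes in KO CDAHFD against KO chow and against WT CDAHFD, with bars for the 95% interval. Against KO chow the intervals of 9 genes lie above 0, with only Cd9 crossing it, while against WT CDAHFD only that of Spp1 (0.12 to 1.25, before adjustment) does not include 0.

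WT CDAHFD and KO chow differ in both genotype and diet, and are described only. Gpnmb, Trem2, Spp1, Cd68, Itgax and Lgals3 were called higher in WT CDAHFD, 6 of 10 against 3.42% of all genes tested. The call of Spp1 held in only 10 of 19 alternatives, and was lost without either KO chow library among others, and that of Cd68 was lost without KO chow replicate 1 (1.10). The log2 difference ran from 0.07 ± 0.23 (SE) for Cd9 and 0.27 ± 0.23 for Cd63 to 1.83 ± 0.21 for Trem2 and 3.26 ± 0.23 for Gpnmb. The diet difference was smaller in KO than in WT mice for all 10 genes, each called lower in the contrast of both diet differences, against 14.5% of all genes tested. The call of Spp1 held in 15 of 18 alternatives, with a value of −0.89 without KO chow replicate 1, against −1.36 with it. For Gpnmb the diet difference was 11.43 in WT and 3.08 in KO mice, and for Cd9 2.02 in WT and 0.17 in KO mice. This contrast contains the same KO chow and WT chow levels as above and adds no separate observation of them.

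Whether the 10 genes moved more than general macrophage RNA was described by setting each beside 10 pan-macrophage markers, among them Adgre1, Cd14, Lyz2 and the C1q genes. The summed level of these markers was 281 to 498 CPM in WT chow, 1050.3 and 1084 CPM in KO chow, 1509 to 2010.3 CPM in WT CDAHFD and 1517 to 1615 CPM in KO CDAHFD, and 9 of 10 were called higher than in WT chow in each group. The exception was Mrc1, the mannose receptor, with log2 differences of 0.39, −0.09 and −0.29 in KO chow and in WT and KO mice on CDAHFD. The mean log2 level of the markers stood 1.47, 1.77 and 1.60 above WT chow in those groups. Relative to that mean the 10 genes had a median of 2.10 in KO chow, with 2.77 in WT CDAHFD and 3.03 in KO CDAHFD above their WT chow value. Gpnmb had 6.59, 9.52 and 9.54, Trem2 3.67, 5.18 and 5.36, Itgax 2.82, 4.27 and 4.52, and Lgals3 2.24, 3.70 and 3.85. Tyrobp had 0.45, 0.85 and 0.99, Cd9 0.51, 0.29 and 0.57, and Cd68 0.55, 1.54 and 1.57. Cd63 stood 2.85, 2.81 and 3.33 above its WT chow value on this scale, Lpl 1.96, 2.73 and 2.73, and Spp1 0.54, 1.38 and 2.24. These are descriptions with no test.

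**Figure D4:**
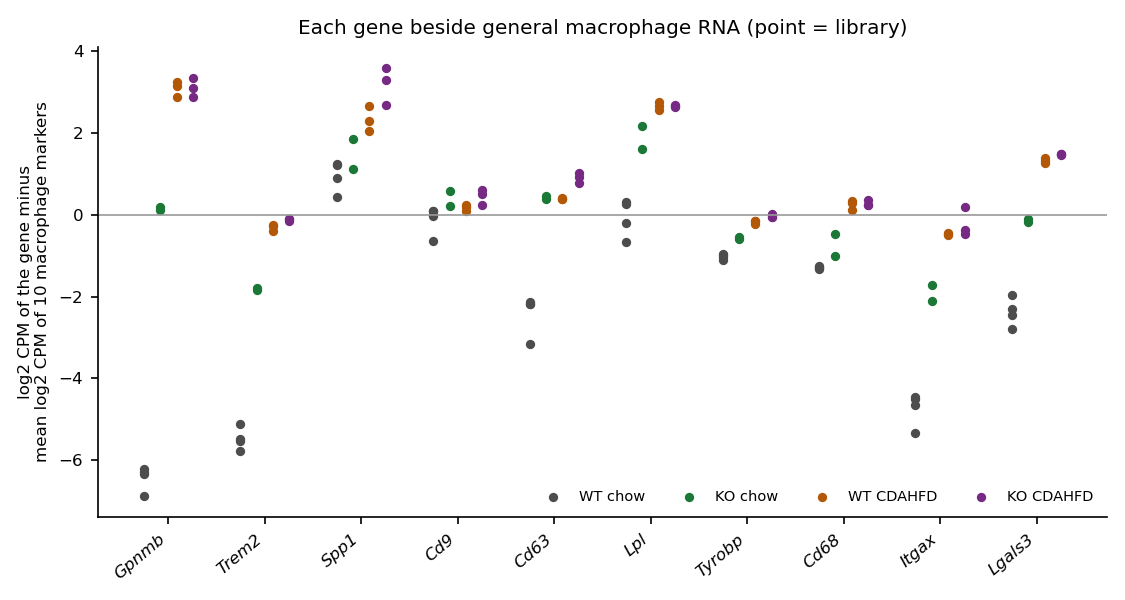
Level of each gene beside general macrophage RNA, as its log2 CPM minus the mean log2 CPM of 10 pan-macrophage markers, with a point for each library and a line at 0, where a gene is level with that mean. Gpnmb, Trem2, Itgax and Lgals3 lie well above their WT chow points in the other 3 groups, by 2.24 to 9.54 in group means, while Tyrobp and Cd9 are above theirs by under 1.

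The partners of TREM2 in signalling and shedding were higher with it. Of 13 genes of this pathway, 12 were called higher than WT chow in KO chow, the exception being Malt1 (−0.10), and all 13 in WT CDAHFD and in KO CDAHFD, with median log2 differences of 1.54, 2.18 and 1.94. Lat2, a membrane adaptor phosphorylated after receptor engagement, stood 1.99 ± 0.33 (SE), 4.23 ± 0.29 and 4.11 ± 0.29 above WT chow, and its exons overlap those of Rfc2, so reads of the pair could not be told apart. The kinase Syk stood 1.61 ± 0.16, 2.66 ± 0.15 and 2.28 ± 0.15 above WT chow, with group means from 7.21 CPM in WT chow to 45.7 CPM in WT CDAHFD. Card9, which couples SYK to NF-κB and overlaps the antisense gene Gm13562, stood 1.79 ± 0.28, 2.66 ± 0.26 and 2.53 ± 0.26 above. Of 4 other receptors that pair with TYROBP, 3, 4 and 3 were called higher, Trem3 being called in WT CDAHFD only. Clec5a had the widest difference (5.07 ± 0.47, 5.78 ± 0.43 and 6.03 ± 0.43). In KO CDAHFD against KO chow only 2 of the 13 pathway genes were called higher, Lat2 by 2.12 (adjusted p = 0.00349 in edgeR) and Syk by 0.67 (adjusted p = 0.0428). Of the 4 receptors 1 was called higher there, Siglech, a plasmacytoid dendritic cell lectin, by 1.09 (adjusted p = 0.0466 in edgeR). Of all genes tested 3.76% were called higher.

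Other markers of lipid-associated macrophages moved as the 10 genes did. Of 15, 12 were called higher than WT chow in KO chow and 13 in each CDAHFD group, with medians of 2.38, 3.07 and 2.98 on the log2 scale. Igf1 was called lower in all 3 groups (−0.76, −1.196 and −1.35). Igf1 is the hormone that hepatocytes secrete in bulk, at 766 to 1077 CPM in WT chow. The protease Mmp12, a macrophage elastase, went from 0.264 ± 0.0395 CPM in WT chow to 111 ± 44.7 CPM in KO chow, 427 ± 65.2 CPM in WT CDAHFD and 407 ± 36.2 CPM in KO CDAHFD (SD), a span close to that of Gpnmb. Atp6v0d2, a subunit of the proton pump of lysosomes, stood 3.70 ± 0.40, 6.11 ± 0.38 and 6.00 ± 0.38 above WT chow (log2, SE), and Plaur, the urokinase receptor, 3.80 ± 0.26, 4.78 ± 0.24 and 4.60 ± 0.24. In KO CDAHFD against KO chow 6 of the 15 rose, among them Atp6v0d2 by 2.30 (adjusted p = 0.00618 in edgeR) and Mmp12 by 1.87 (adjusted p = 8.71e-04), and Igf1 was called lower (−0.59, adjusted p = 0.0462), against 2.44% of all genes tested that were called lower there. The Igf1 call was lost under DESeq2 size factors and under library size alone.

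Genes of macrophage lipid handling and of the lysosome were higher in part. Of 14 lipid-handling genes, 9, 10 and 9 were called higher than WT chow, in the order KO chow, WT CDAHFD, KO CDAHFD, and 2, 2 and 3 lower, where 17%, 25% and 25.4% of all genes tested were called lower. Cd36, the fatty acid and oxidised-lipoprotein scavenger receptor, went from a mean of 23.6 CPM in WT chow to 154, 437 and 333 CPM. Soat1, which esterifies cholesterol for storage in droplets, stood 1.76 ± 0.18, 2.93 ± 0.17 and 2.81 ± 0.17 above WT chow, and the scavenger receptor Olr1 3.80 ± 0.65, 4.68 ± 0.59 and 4.24 ± 0.60. Apoe, made mainly by hepatocytes in liver, was called lower in all 3 groups. Of 15 lysosomal genes, 11, 13 and 12 were called higher and Lamp2 lower (−0.59, −0.62 and −0.75). The lower calls of Apoe, Lamp2 and the other genes of these 2 lists were lost under library size alone. The protease Ctss stood 2.23 ± 0.21, 3.49 ± 0.20 and 3.36 ± 0.20 above WT chow, and Ctsd 1.204 ± 0.11, 1.997 ± 0.10 and 1.94 ± 0.10. In KO CDAHFD against KO chow only 2 of the 14 lipid-handling genes were called higher, Cd36 by 1.11 (adjusted p = 0.0219 in edgeR) and Soat1 by 1.05 (adjusted p = 0.0112). Of the 15 lysosomal genes 4 were called higher there, among them Ctss by 1.13 (adjusted p = 0.0169 in edgeR) and Ctsd by 0.73 (adjusted p = 0.00653). Of all genes tested 3.76% were called higher.

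Of 12 transcription factors linked to lipid-laden macrophages, 4, 5 and 5 were called higher than WT chow. Tfe3, Tfec, Spi1 and Pparg were called in all 3 groups, and Mitf in both CDAHFD groups. Spi1, which encodes the myeloid factor PU.1, stood 1.71 ± 0.23, 2.41 ± 0.21 and 2.29 ± 0.21 above WT chow, and Pparg 2.08 ± 0.27, 2.31 ± 0.25 and 2.31 ± 0.25. Nr1h3, the oxysterol receptor LXRα of hepatocytes and macrophages, was called lower in both CDAHFD groups (−0.56 and −0.57), and this was lost under library size alone. The list as a whole had medians of 0.07, 0.36 and 0.31, beside 0.00, −0.05 and −0.04 for all genes tested. None of the 12 was called between KO CDAHFD and KO chow in edgeR's test.

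The regulators of LPL were lower where Lpl was higher. Of 9 cofactors and inhibitors, none was called higher, and 5, 9 and 7 were called lower than WT chow in the same order of groups, or 2, 5 and 3 under library size alone. The inhibitor Apoc3, which hepatocytes secrete, was among them (−0.69 ± 0.22, −1.39 ± 0.19 and −1.20 ± 0.19). Angptl8 was called lower in WT CDAHFD (−2.27 ± 0.43) and not in KO chow (−0.73 ± 0.46) or KO CDAHFD (−0.57 ± 0.40). Hepatocyte markers moved the same way, with 4, 6 and 6 of 6 called lower and medians of −0.69, −0.93 and −0.96, but under library size alone 0, 5 and 3 were lower and the medians were −0.29, −0.37 and −0.34. Their part in the levels of the LPL regulators was not tested.

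Receptors and relatives of the other members were higher in part. In the order KO chow, WT CDAHFD, KO CDAHFD, 22%, 26.1% and 26.9% of all genes tested were called higher than WT chow. The shares called lower were 17%, 25% and 25.4%. Of 7 receptor genes for SPP1, 5 were called higher in each group. Cd44 stood 1.89 ± 0.17, 2.39 ± 0.16 and 2.18 ± 0.16 above WT chow and Itgb5 0.72 ± 0.12, 1.16 ± 0.11 and 1.18 ± 0.11. Of 8 other tetraspanins, 5 were called higher in each group, with the leukocyte tetraspanin Cd53 at 1.86 ± 0.17, 2.44 ± 0.16 and 2.31 ± 0.16 and the epithelial Tspan8 at 2.91 ± 0.41, 3.79 ± 0.38 and 4.47 ± 0.39. A list of 6 genes held other galectins and Lgals3bp, which encodes a galectin-binding protein and not a galectin. Of these 6, 2 were called higher in each group and 1, 1 and 2 lower. Those called higher were Lgals1 (2.50 ± 0.15, 3.27 ± 0.15 and 3.30 ± 0.15) and Lgals3bp (0.63 ± 0.14, 1.02 ± 0.13 and 0.67 ± 0.13). Of 4 other genes of the β2 integrins 3, 4 and 4 were higher. Itgb2, the β chain that pairs with ITGAX, went from a mean of 9.82 CPM to 44.0, 139 and 117 CPM, and Itgam (CD11b) stood 2.998 ± 0.35, 4.71 ± 0.32 and 4.75 ± 0.32 above WT chow. In KO CDAHFD against KO chow 2 of these 4 integrin genes were called higher, Itgam by 1.75 (adjusted p = 0.0102 in edgeR) and Itgb2 by 1.41 (adjusted p = 0.00747). Of the 6 genes of the galectin list 1 was called higher there, Lgals1 by 0.80 (adjusted p = 0.0173 in edgeR). Of the 8 tetraspanins 3 were called higher, among them Tspan8 by 1.56 (adjusted p = 0.0456 in edgeR). Of all genes tested 3.76% were. Of the SPP1 receptors none was called higher there, and Itgb3 was called lower (−0.91, adjusted p = 0.0329 in edgeR), a call lost under library size alone.

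The markers of liver cell types show what else moved with the 10 genes. Kupffer cell markers were higher in part in KO chow and did not follow the 10 genes in the CDAHFD groups. Their summed level was 251.1 to 428 CPM in WT chow, 702 and 922 CPM in KO chow, 406 to 511 CPM in WT CDAHFD and 215 to 561 CPM in KO CDAHFD. In KO chow Vsig4, Cd5l and Marco were called higher and Cd163 lower. In both CDAHFD groups Cd5l was called higher and Timd4 and Cd163 lower. Their medians were 0.67 in KO chow, with −0.44 in WT CDAHFD and −0.46 in KO CDAHFD, the last 2 turning to 0.10 and 0.13 under library size alone, where the call of Cd163 in KO chow was also lost. Timd4, the phosphatidylserine receptor of resident Kupffer cells, was at 7.38 to 12.04 CPM in WT chow, 13.7 and 17.4 CPM in KO chow, 0.246 to 0.677 CPM in WT CDAHFD and 0.428 to 2.59 CPM in KO CDAHFD. Between the diets in the KO it fell by 3.42 (adjusted p = 0.00314 in edgeR), while Trem2 and Itgax rose in the same livers. Clec4f, the defining lectin, was present in every group (34.1 to 246 CPM).

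All 7 monocyte markers were called higher than WT chow in each group, with summed levels of 6.38 to 18.9 CPM in WT chow, 55.0 and 82.9 CPM in KO chow, 83.8 to 103 CPM in WT CDAHFD and 81.3 to 98.0 CPM in KO CDAHFD. Ccr2, the chemokine receptor of recruited monocytes, stood 3.14 ± 0.40, 3.97 ± 0.38 and 3.87 ± 0.38 above WT chow, and Cx3cr1 3.71 ± 0.38, 4.98 ± 0.36 and 5.21 ± 0.36. Of 6 dendritic cell markers 5, 4 and 5 were called higher, of 6 T and NK cell markers 4, 3 and 3, of 4 neutrophil markers that could be tested 3, 3 and 4, and of 6 stellate cell markers 3, 3 and 4. Ly6g, the neutrophil marker that could not be tested, had at most 3 counts in a library. Col1a1, the collagen of activated stellate cells, went from a mean of 8.49 CPM in WT chow to 164, 245 and 322 CPM. The summed stellate markers were at 82.6 to 131 CPM in WT chow and 363 to 620.1 CPM in the other 3 groups, and the summed neutrophil markers at 2.80 to 13.9 CPM and 20.8 to 31.2 CPM. How far each of these cell types contributed to the 10 genes was not tested. In KO CDAHFD against KO chow 1 of the 7 monocyte markers was called higher, Cx3cr1 by 1.499 (adjusted p = 0.0325 in edgeR). The median of the 7 was −0.32. Of the 7 cholangiocyte markers 3 were called higher there, Epcam by 1.88 (adjusted p = 0.00361 in edgeR), Cldn7 by 1.83 (adjusted p = 0.00286) and Muc1 by 1.24 (adjusted p = 0.0201). Of all genes tested 3.76% were called higher in this comparison. Called lower there were, besides Timd4, the lymphocyte protease gene Gzma (−1.38, adjusted p = 0.0243 in edgeR) and the hepatocyte markers Alb (−0.74, adjusted p = 0.0421) and Tat (−1.23, adjusted p = 0.0319), the last not under library size alone. No gene of any of these lists was called between KO CDAHFD and WT CDAHFD in edgeR's test.

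**Figure D5:**
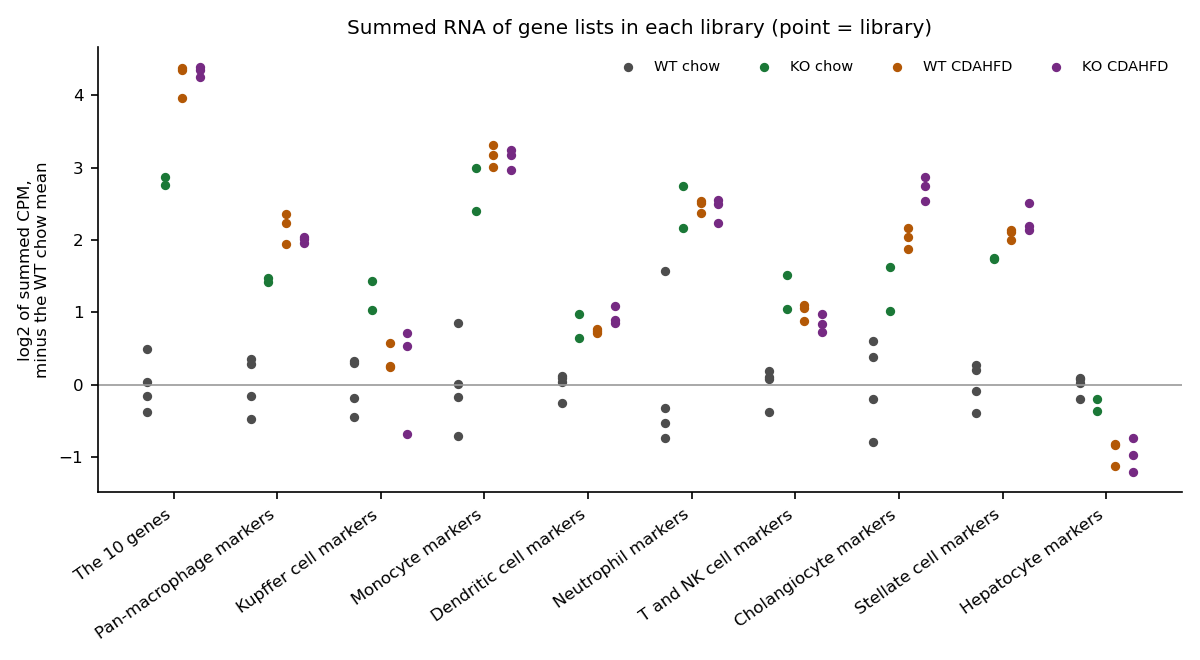
Summed level of the 10 genes and of 9 lists of cell type markers in every library, as log2 of the summed CPM minus the WT chow mean, with a point for each library. The 10 genes and the monocyte markers stand highest above WT chow in the other 3 groups, the cholangiocyte markers are highest in KO CDAHFD, the Kupffer cell markers are highest in KO chow, and the hepatocyte markers lie at or below WT chow.

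Genes whose pattern lay nearest to those of Trem2, Gpnmb and Spp1 were picked by the root mean square difference of log2 CPM, centred on WT chow, over the 8 libraries of the other 3 groups. Nearest to Trem2 were Cfap44 (0.42), Scube1 (0.58), Clec4d (0.61), Lcn2 (0.70) and Timp1 (0.77), of which Cfap44 had no counts in any WT chow library. Nearest to Gpnmb was Mmp12 (0.79), and the next, Vmn2r3, was already at 2.65, with Vsig8 at 3.50, H19 at 3.64 and Trem2 itself, one of the 10 genes, at 3.97. Vmn2r3 too had no counts in WT chow. Nearest to Spp1 were Fhl2 (0.13), Ehf (0.15), St14 (0.16), Scara3 (0.20) and Gm830 (0.20). The distances describe these 8 libraries, and genes with few counts in WT chow have their own centre poorly fixed.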

How the data were processed

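RNA of 12 mouse livers was sequenced as poly-A, non-directional libraries. According to the methods and the submitters' processing notes, reads were checked with FastQC 0.11.5 and aligned to GRCm38 with STAR 2.7.3a, and the authors used DESeq2 and Omics Playground for their own comparisons. The authors deposited raw read counts per gene, with 29906785 to 43551003 counts a library. The counter and the annotation release are not given in the sources used here. Non-directional libraries do not keep the strand.

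Ensembl identifiers were given symbols from GENCODE M21 (52081 of 55357, holding 99.7% of the counts). Counts were filtered with filterByExpr and scaled by TMM, and edgeR 4.0.16 in R 4.3.3 fitted 1 mean per group over all 12 libraries (quasi-likelihood test, Benjamini-Hochberg adjustment over 17358 genes, threshold 0.05). Standard errors are the difference divided by the square root of F, and intervals are 95% by the fit's degrees of freedom. Log2 CPM used a prior count of 2. DESeq2 1.42.0 and limma 3.58.1 (voom), DESeq2 size factors, library size alone, no filter, a fit of only the groups compared, a block on replicate number and each library left out in turn were the alternatives. The scripts were tested on simulated data. The labels name no batch. They give separate samples, and the methods speak of separate mice, 3 to each group, where the labels give 4 WT chow and 2 KO chow libraries. Groups follow the labels. Titles and descriptions differ in the number for KO chow replicate 2 and for every CDAHFD library. The titles count within a group, while the descriptions count on through a genotype. The title's number was used.

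The 10 genes and the 21 other lists were chosen with earlier results of these data known, so no list is given a test. Named from each other list were at most 3 genes called between WT CDAHFD and WT chow, those with the widest difference and a mean of at least 50 counts. Exceptions to a list, its lower calls, genes that define a cell type and the remaining genes named were named after their values were seen. Promoter windows were from RefSeq (27025 genes). A gene that the rule for named genes gives is not reported here.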

Additional observations from a re-analysis of the deposited data

Results flagged for a closer look

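The diet difference was smaller in KO than in WT mice for each of the 10 genes. KO CDAHFD minus KO chow, less WT CDAHFD minus WT chow, was −8.34 ± 0.32 on the log2 scale (SE) for Gpnmb and −5.16 ± 0.30 for Trem2. It was −4.12 ± 0.34 for Itgax, −3.93 ± 0.30 for Cd63, −3.71 ± 0.27 for Lgals3 and −3.51 ± 0.40 for Lpl. The smaller values were −2.15 ± 0.28 for Cd68, −1.9 ± 0.28 for Tyrobp, −1.85 ± 0.30 for Cd9 and −1.36 ± 0.37 for Spp1. All 10 were called lower in edgeR's quasi-likelihood fit, as were 14.5% of the genes tested. The call of Spp1 held in 15 of 18 alternatives, and was lost with the replicate block, without WT CDAHFD replicate 2 and without KO chow replicate 1, where it was −0.89. The list was chosen with the level of Gpnmb in 3 of these groups known, so the values are a description. The contrast contains the levels of KO chow and WT chow. No library of the 10 WT chow sets of values, 1 for each gene, stood far from the other 3 by Dixon's criterion.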

How the results depend on the processing

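The counts of the 10 genes called stayed at 10, 10 and 10 higher in KO chow, in WT mice on CDAHFD and in KO mice on CDAHFD than in WT chow and at 0 between the CDAHFD groups under every alternative run. Those of KO CDAHFD against KO chow ranged from 5 to 9, of WT CDAHFD against KO chow from 4 to 8 and of the contrast of diet differences from 9 to 10. Replicate numbers did not pair the libraries (correlations of same-numbered libraries from −0.242 to 0.266), and with the number as a block 10, 10, 10, 7, 0, 7 and 9 genes were called, in the order of the comparisons with WT chow, WT CDAHFD against KO chow, KO CDAHFD against WT CDAHFD and against KO chow, and the contrast. Between KO CDAHFD and WT CDAHFD small differences changed sign: under library size alone Tyrobp was 0.0199 and Lgals3 0.0164, and with each library left out Trem2 ranged from −0.10 to 0.0747, Tyrobp from −0.0832 to 0.0503, Lgals3 from −0.10 to 0.0544 and Itgax from −0.0632 to 0.19. Cd9 in KO CDAHFD against KO chow ranged from −0.0465 to 0.44, below 0 without KO chow replicate 2. With the C1q genes alone as macrophage markers the medians relative to them were 3.11 in WT CDAHFD and 3.17 in KO CDAHFD. Over all genes tested the calls between the CDAHFD groups were 62, against 245 by DESeq2, 100 by voom, 215 without the filter, 154 with only those groups fitted and 26 to 39 without any 1 of the 6 CDAHFD libraries. For KO CDAHFD against KO chow they were 1075, against 1904 by DESeq2, 640 with the block, 581 with only those groups, 233 and 300 without KO chow replicate 1 and 2, 459 and 505 without KO CDAHFD replicate 1 and 3, and 677 without WT CDAHFD replicate 1. For WT CDAHFD against KO chow they were 1063, against 2081 by DESeq2, 1985 with only those groups, 357, 376 and 622 without WT CDAHFD replicate 1, 2 and 3, and 260 and 584 without KO chow replicate 1 and 2. Where a cause is not part of the setting itself, the cause was not tested. Of the values of single genes, 814 of 840 with a library left out and 434 of 480 under the other alternatives counted as unchanged. For KO CDAHFD against WT CDAHFD and against KO chow, this meant the same direction and the same side of the threshold. For the described comparisons it meant a move smaller than the spread between libraries, with no change of sign where a gene was called. Calls gained or lost in the described comparisons were not counted here. Of the rest, 9 and 2 changed sign, and 11 and 34 were described values that moved by more than the spread between libraries. In KO CDAHFD against WT CDAHFD and against KO chow, 4 and 10 values came to pass the threshold and 2 and 0 no longer passed it. Depth limits mainly Gpnmb, Trem2 and Itgax in WT chow, at 2 to 10, 7 to 22 and 8 to 38 counts.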
